A study of Mus musculus with 12 samples.

Results

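Cxcr3, Cxcr4, Cxcr6, Cx3cr1, Ccr2 and Ccr9 are chemokine receptor genes that effector T cells are known to use, and they were described across 12 single-cell RNA libraries of transferred T cells from mice. They were chosen by name, and all 6 were found among the 18601 genes of the deposited matrix. The study, whose title ties the colitis-causing behaviour of Th1-like cells to the interleukin-23 receptor, took cells labelled as CD4 T cells from 4 tissues of mice that had received Th1 cells. Control libraries came from recipients of Il23r wt/eGFP cells, which carry an eGFP reporter in 1 of the gene's 2 copies and which the labels call wildtype. Knockout libraries came from recipients of Il23r eGFP/eGFP cells, which carry it in both. Spleen and colon lamina propria, the connective tissue layer under the gut lining, each had 2 libraries per genotype, numbered 1 and 2. Small intestine lamina propria and colon epithelium each had 1 library per genotype, both numbered 2. Spleens were mechanically homogenised and their red cells lysed, while gut cells were released with a lamina propria dissociation kit, so tissue and preparation cannot be told apart. The age and strain of the recipients and the number of animals behind a library were not in the labels.

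Chemokine receptors are receptors with a transmembrane bundle that couples to inhibitory G proteins, and they steer T cells along gradients of small secreted chemokines. CXCR3 follows the interferon-induced ligands CXCL9, CXCL10 and CXCL11 and is a classical receptor of Th1 cells, while CXCR6 binds CXCL16 and is known from T cells that stay in tissues. CCR9 binds CCL25, which the small intestinal epithelium makes, and is the classical homing receptor of small bowel T cells. CCR2 binds CCL2 and its relatives, CX3CR1 binds CX3CL1 and is known from cytotoxic effector cells in blood and spleen, and CXCR4 binds CXCL12.

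The genes lie in 3 places of the mouse genome (GRCm38, GENCODE M21). Cxcr3 lies on chromosome X at 101731535-101734269 on the minus strand, and Cxcr4 on chromosome 1 at 128588199-128592293, also on the minus strand. The other 4 lie on chromosome 9, with Cx3cr1 at 119901616-120069879 (minus strand), Ccr9 at 123678439-123784330, Cxcr6 at 123806475-123811760 and Ccr2 at 124101950-124113557 (all plus strand). By these GENCODE spans, the start of Ccr9 was 128.0 kb before that of Cxcr6, and the start of Ccr2 was 295.5 kb after it. Promoter windows from RefSeq (GRCm38.p6), 250 bases before to 50 bases after the RefSeq start site, were matched for 6 of 6 genes. RefSeq and GENCODE starts can differ, and the Ccr9 window lies well inside its GENCODE span and not at the GENCODE start. The windows of 2 genes that were higher in a gut tissue than in spleen in the tests given further on (Ccr9, Cxcr6) and of 2 that were lower (Cx3cr1, Cxcr3) are printed 5′ to 3′ on the gene's strand, with capitals marking matches to 4 short letter motifs.
Cxcr6, 9:123806227-123806526, plus strand: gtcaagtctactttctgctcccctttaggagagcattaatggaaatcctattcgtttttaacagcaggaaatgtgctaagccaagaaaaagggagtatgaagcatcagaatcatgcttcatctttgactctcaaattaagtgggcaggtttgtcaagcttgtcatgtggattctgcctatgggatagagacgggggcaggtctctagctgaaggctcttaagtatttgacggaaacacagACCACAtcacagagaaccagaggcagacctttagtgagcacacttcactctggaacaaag
Ccr9, 9:123766961-123767260, plus strand: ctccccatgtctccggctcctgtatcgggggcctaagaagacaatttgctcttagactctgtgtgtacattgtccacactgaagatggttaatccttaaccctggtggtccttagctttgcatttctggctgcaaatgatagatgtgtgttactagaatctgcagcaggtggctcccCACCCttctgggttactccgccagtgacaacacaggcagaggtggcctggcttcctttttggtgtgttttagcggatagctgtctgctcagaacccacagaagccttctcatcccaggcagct
Cx3cr1, 9:120068247-120068546, minus strand: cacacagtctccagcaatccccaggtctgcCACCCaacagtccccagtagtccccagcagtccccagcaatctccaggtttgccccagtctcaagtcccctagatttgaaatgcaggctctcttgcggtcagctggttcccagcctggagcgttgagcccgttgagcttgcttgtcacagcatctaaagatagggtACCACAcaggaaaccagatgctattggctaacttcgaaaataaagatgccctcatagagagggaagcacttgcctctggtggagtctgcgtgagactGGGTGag
Cxcr3, X:101734098-101734397, minus strand: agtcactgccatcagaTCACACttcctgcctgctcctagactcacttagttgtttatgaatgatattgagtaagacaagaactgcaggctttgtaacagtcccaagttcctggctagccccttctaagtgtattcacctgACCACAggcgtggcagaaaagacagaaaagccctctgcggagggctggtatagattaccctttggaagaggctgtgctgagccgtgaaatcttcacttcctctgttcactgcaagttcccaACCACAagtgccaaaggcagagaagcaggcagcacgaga

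The motifs were searched on both strands and named after the factor families that read them. The T-box core (GTGTGA, present in 14.49% of 32851 promoter windows of the same length) was found once, in Cxcr3. The RUNX letters (TGTGGT, 16.76% of windows) were found at 2 places in Cxcr3 and at 1 place each in Cxcr6 and Cx3cr1. The KLF letters (CACCC, 57.52% of windows) were found at 2 places in Cx3cr1 and at 1 place each in Ccr9 and Cxcr4, and the GATA letters (GATAA, 25.41% of windows) in Cxcr4 and Ccr2. The G and C content of the windows ran from 38.0% in Ccr2, with 1 CpG, to 59.33% in Cxcr4, with 20 CpG, beside a median of 52.67% and 7 CpG over all windows. These matches are descriptions of the letters and not binding sites.

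Of 32763 cells, 29623 (90.42%) held 3 or more UMIs of Cd3d, Cd3e and Cd3g together and were counted as CD3-positive T cells. A UMI, or unique molecular identifier, marks 1 captured RNA molecule. There were 764 to 3661 such cells in a library, with 1902990 to 13248318 UMIs in all and a median of 2273 to 5690 UMIs per cell, and the libraries numbered 1 were deeper per cell than those numbered 2. Several libraries stood apart. In small intestine lamina propria of the knockout, 50.62% of cells were CD3-positive, against 77.88% to 98.44% in the other 11 libraries. In knockout spleen 1, 31.15% of the CD3-positive cells also held 2 or more UMIs of markers of another cell type, against 2.21% to 13.4% elsewhere. A barcode sequence that occurs in 2 or more libraries was found 677 times, covering 1363 cells. Cd4 stood at 199 to 386 CPM, counts per 1000000 UMIs, in all 12 libraries and Cd8a at 0.0758 to 18.3 CPM, so the label of CD4 T cells held for their sum. Il23r, at chromosome 6:67422932-67491855, gave 0.605 to 3.09 CPM in the 6 control libraries and 0.314 to 4.20 CPM in the 6 knockout libraries, and since 3′ tags need not lie in the altered part, these values check no label. The labels do not say that libraries came from separate animals, so p-values measure only the spread between these libraries.

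Levels are given as CPM, the UMIs of a gene per 1000000 UMIs of the CD3-positive cells of a library. Cxcr6, known from tissue-resident T cells, stood apart in the colon epithelium. Its level was 424, 539.7, 495 and 539.5 CPM in spleen (control 1, control 2, knockout 1, knockout 2), and 887, 858, 670.1 and 776 CPM in colon lamina propria in the same order. It was 723 CPM in control and 458 CPM in knockout small intestine lamina propria, and 1594 CPM in control and 1314 CPM in knockout colon epithelium. Both epithelial libraries lay above all others, and all 4 colon lamina propria libraries lay above all 4 spleen libraries, while the small intestine pair straddled both ranges.

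Ccr2, which guides cells to inflamed tissue, had another order. It was at 281, 316, 277 and 322 CPM in spleen and at 441, 390.4, 363 and 428 CPM in colon lamina propria, with controls 1 and 2 given before knockouts 1 and 2. In small intestine lamina propria it was at 224 CPM (control) and 230.2 CPM (knockout), and in colon epithelium at 206 and 218 CPM. None of these tissue ranges overlapped, and the order of the CPM was colon lamina propria, spleen, small intestine lamina propria, colon epithelium. Small intestine lamina propria and colon epithelium were not compared in a test. The counting intervals of their knockout libraries overlapped, at 209.1 to 252.8 and 208.9 to 227.8 CPM.

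Ccr9, the small bowel homing receptor, had its 2 highest levels in the small intestine lamina propria. There it was at 223 CPM in the control and 101 CPM in the knockout, against 31.7 and 25.6 CPM in colon epithelium. Colon lamina propria held 17.3, 23.8, 19.2 and 10.6 CPM, and spleen 2.51, 24.2, 2.17 and 4.40 CPM. Control spleen 2 lay about as high as colon lamina propria, whereas the other 3 spleen libraries lay below every gut library.

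Cx3cr1, known from circulating cytotoxic effectors, had its 3 highest levels in spleen. It was at 21.2, 11.6, 52.8 and 18.7 CPM in spleen and at 1.99, 1.68, 1.36 and 2.29 CPM in colon lamina propria. In small intestine lamina propria it was at 1.62 CPM in the control, with 0 UMIs in the knockout, where 3 UMIs would have been 1.58 CPM. Colon epithelium held 13.0 CPM in the control and 5.45 CPM in the knockout, and the control value fell within the spleen range.

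Cxcr3, the Th1 receptor, was present in every library. It was at 412, 333, 265 and 301 CPM in spleen and at 162, 201, 169.9 and 139 CPM in colon lamina propria. Small intestine lamina propria held 214 (control) and 194 CPM (knockout), and colon epithelium 267 and 189.9 CPM. All 4 spleen libraries lay above all 4 colon lamina propria libraries, and the spleen and colon epithelium ranges overlapped.

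Cxcr4, which binds the broadly made ligand CXCL12, was at 31.1 CPM or less in all libraries. It was at 8.23, 3.38, 13.8 and 2.20 CPM in spleen and at 22.0, 13.8, 31.1 and 11.9 CPM in colon lamina propria. Small intestine lamina propria held 15.3 and 18.9 CPM. Colon epithelium held 1.81 CPM in the control (21 UMIs) and 0.314 CPM in the knockout (3 UMIs), below every other library. In spleen and in colon lamina propria, the library numbered 1 was above the library numbered 2 of the same genotype.

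**Figure D1:**
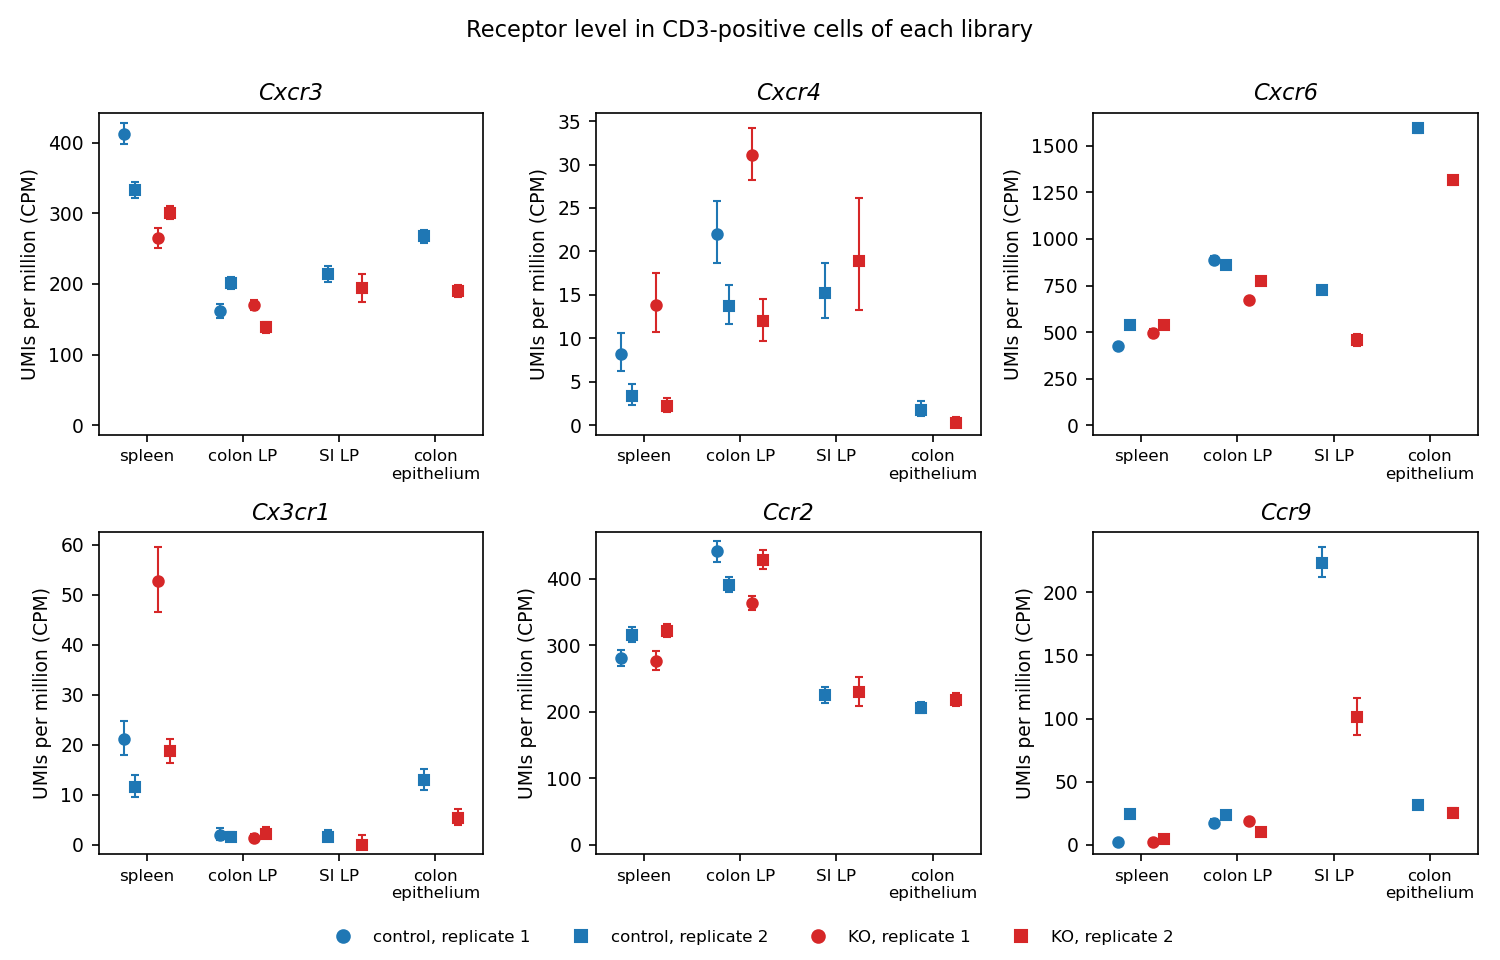
Level of each receptor (vertical axis, CPM of CD3-positive cells) in the 12 libraries, grouped by tissue along the horizontal axis. Circles are libraries numbered 1 and squares libraries numbered 2, blue is control and red knockout, and bars are exact Poisson 95% intervals, which cover counting error only. Cxcr6 is highest in the 2 colon epithelium libraries (1594 and 1314 CPM), Ccr9 in the 2 small intestine libraries (223 and 101 CPM), and Cx3cr1 in knockout spleen 1 (52.8 CPM).

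The shares of cells with a UMI were compared after each cell was thinned to 1000 UMIs, which left out 272 shallower cells (0.918%). Cxcr6 was detected in 66.5% and 72.8% of epithelial cells (knockout, control), in 40.2% to 50.4% in colon lamina propria and in 28.3% to 35.7% in spleen, and at full depth its share ran from 42.8% to 92.0% over the 12 libraries. Ccr2 was detected in 28.1% to 33.0% of colon lamina propria cells, 22.1% to 25.8% of spleen cells and 16.4% to 17.8% elsewhere. The thinned share of Cxcr3 was 19.8% to 31.2% in spleen and 13.7% to 18.1% in colon lamina propria. Ccr9 was detected in 8.79% and 17.9% of small intestine cells (knockout, control) and in 0.262% to 2.96% of cells in the other 10 libraries.
As a measure of free RNA, the share was taken in 75 cells with no CD3 UMI and 3 or more UMIs of epithelial markers, whose median depth was 2060 UMIs, against 2869 UMIs in CD3-positive cells. Cxcr6 was found in 5 of these cells (6.67%), Ccr2 in 1 (1.33%) and the other 4 receptors in 0, which allows a share of up to 4.0%. The thinned shares of Cxcr4 (0.0607% to 2.88%), of Ccr9 outside the small intestine, and of Cx3cr1 in all libraries but knockout spleen 1 (7.20%) were within that limit, so for them this reference sets no floor below the measured share. In 54 such cells with erythroid markers Cxcr6 was found in 14 (25.93%), against 28.3% in the spleen library with the lowest share. Cxcr6 stood at 475 CPM in these cells, Ccr2 at 4.48 CPM and Cxcr3 at 13.4 CPM. In CD3-positive cells the values were 819, 316 and 239 CPM. Whether the Cxcr6 of the erythroid-marker cells was free RNA or their own was not tested, so it sets no level of free RNA for spleen.

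Among thinned cells with a receptor UMI, most held UMIs of only 1 of the 6. Thinning lowers detection, so this does not show that a cell expressed only 1 receptor. In control spleen 1, for example, Cxcr3 was detected in 75.79% of cells at full depth and in 31.25% after thinning. The shares there were 58.19% and 28.26% for Cxcr6, and 56.34% and 22.1% for Ccr2. The number of receptors per cell at full depth is not given here. After thinning, 16.89% to 45.01% of the cells of a library held a UMI of none of the 6 receptors and 15.85% to 29.84% held UMIs of 2 or more. For Cxcr6 and Ccr2 in the same cell the odds ratio was above 1 in 11 of 12 libraries, with a median of 1.35 (range 0.899 to 3.72). For Cxcr3 and Cx3cr1 it was below 1 in all 5 libraries that held enough cells, with a median of 0.490 (range 0.187 to 0.769). For Cxcr3 and Cxcr6 the median was 0.969, with 5 of 12 libraries above 1. These ratios are descriptions, since the cells of a library share its depth and its mix of cells.

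Colon lamina propria was compared with spleen over 8 libraries, with a test of summed UMIs across 10976 genes (edgeR quasi-likelihood, Benjamini-Hochberg adjustment, threshold 0.05). Libraries were not paired by number in this test. Of the 6 receptors 4 passed, beside 29.7% of all genes tested (16.6% higher and 13.1% lower in colon lamina propria). Cxcr6 was 0.93 ± 0.14 (log2 difference ± SE) higher in colon lamina propria, with an adjusted p of 0.00268, and Ccr2 was 0.70 ± 0.14 higher, with an adjusted p of 0.00839. Cxcr3 was lower, at −0.70 ± 0.16 with an adjusted p of 0.0130, and Cx3cr1 was lower by the widest margin, at −3.50 ± 0.45 with an adjusted p of 0.00194. Each of these 4 calls held with any 1 of the 8 libraries left out. In the 4 matched pairs the log2 difference of the CPM was 0.44 to 1.07 for Cxcr6, with a median of 0.60 that lies below the fit, and 0.31 to 0.65 for Ccr2, where every pair lies below the fit. The fit also applies scaling factors, which were 0.848 and 0.844 for the colon lamina propria libraries numbered 1.

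Cxcr4 and Ccr9 missed the threshold in this comparison, and both passed it under other settings. Cxcr4 was 1.86 ± 0.72 higher in colon lamina propria, with an adjusted p of 0.101. It passed with DESeq2 (1.81, adjusted p = 0.00307), with the replicate number as a block (1.97, adjusted p = 0.00100), in the libraries numbered 2 alone (2.38, adjusted p = 0.0102) and with knockout spleen 1 left out (2.75, adjusted p = 0.0271). Ccr9 was 1.64 ± 0.64 higher, with an adjusted p of 0.102. Without control spleen 2 its difference was 2.81, with an adjusted p of 0.00556, and DESeq2 gave 1.66 with an adjusted p of 0.00554.

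Small intestine lamina propria was compared with spleen over the 8 libraries numbered 2, with both genotypes standing in for replicates. Here too 4 of the 6 receptors passed, 2 in each direction, beside 23.2% of 11155 genes (13.4% higher and 9.78% lower in the small intestine). Ccr9 was 3.80 ± 0.50 higher in the small intestine, with an adjusted p of 0.00817 that held without any 1 library. Cxcr4 was 2.72 ± 0.47 higher (adjusted p = 0.00710), and lost the call without the small intestine knockout (2.27, adjusted p = 0.0535) or without knockout spleen 2 (2.53, adjusted p = 0.0537). Cx3cr1 was lower at −3.62 ± 0.84 (adjusted p = 0.0324) and Cxcr3 at −0.51 ± 0.15 (adjusted p = 0.0384). Both lost the call without any 1 of 5 libraries: knockout or control small intestine, knockout or control colon lamina propria 2, or knockout spleen 2. The adjusted p was then 0.0506 to 0.110 for Cx3cr1, which was also at 0.0591 without a filter on low counts, and 0.0690 to 0.217 for Cxcr3, and without the small intestine control the Cx3cr1 estimate of −10.09 rested on 0 UMIs in the remaining library and is no bound. Cxcr6 (0.23 ± 0.16, adjusted p = 0.327) and Ccr2 (−0.36 ± 0.12, adjusted p = 0.0661) did not pass.

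Colon epithelium differed from spleen in 2 of the 6 receptors, beside 7.01% of 11155 genes (4.34% higher and 2.67% lower in the epithelium). Cxcr6 was 1.39 ± 0.17 higher in the epithelium (adjusted p = 0.00229), a call that held without any 1 library. Ccr2 was lower at −0.61 ± 0.12 (adjusted p = 0.0197), and lost the call without the knockout epithelium (−0.56, adjusted p = 0.209) or the control epithelium (−0.65, adjusted p = 0.0962), and over all cells, CD3-positive or not (−0.63, adjusted p = 0.155). Cxcr3 stood at −0.51 ± 0.15 (adjusted p = 0.0728) and passed without control spleen 2 (−0.61, adjusted p = 0.0482). Cxcr4 stood at −1.36 ± 0.55 (adjusted p = 0.206) and passed without the control epithelium (−3.06, adjusted p = 0.0160), which left 3 UMIs in the epithelium. Ccr9 stood at 1.28 ± 0.49 (adjusted p = 0.221) and passed without control spleen 2 (2.26, adjusted p = 0.00475), and Cx3cr1 stood at −0.78 ± 0.56 (adjusted p = 0.476).

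The 2 compartments of the colon differed in 3 of the 6 receptors, beside 12.2% of 11155 genes (4.63% higher and 7.57% lower in the epithelium). Ccr2 was lower in the epithelium than in the lamina propria, at −1.14 ± 0.12 with an adjusted p of 0.00119 that held without any 1 library. Cxcr4 was lower at −3.74 ± 0.51 (adjusted p = 0.00575), and without knockout colon lamina propria 2 the adjusted p was 0.0555 at a difference of −3.58. Cxcr6 was 0.64 ± 0.16 higher in the epithelium (adjusted p = 0.0387), and lost the call without knockout or control epithelium or without either colon lamina propria library, with differences of 0.51 to 0.76 and adjusted p of 0.158 to 0.274. Over all cells, CD3-positive or not, the adjusted p of Cxcr6 was 0.102. Cx3cr1 was 2.03 ± 0.66 higher without passing (adjusted p = 0.111), and passed without the knockout epithelium (2.78, adjusted p = 0.0233).

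Between the 2 lamina propria tissues, edgeR called 1 gene of 11155 (0.00896%), which was none of the receptors, with 982 genes at an unadjusted p under 0.05, and DESeq2 called 92. Ccr9 was 3.21 ± 0.49 higher in the small intestine with an adjusted p of 0.219 in edgeR and of 6.06e-11 in DESeq2. Its CPM was 3.23 and 3.25 higher on the log2 scale in the 2 genotype pairs. Without knockout spleen 2 or control spleen 2, libraries of neither tissue, which enter through the estimate of the spread and through which genes are tested (11849 and 11878 without them), its adjusted p was 0.00338 and 0.00275. Ccr2 was lower in the small intestine at −0.88 ± 0.12, with an adjusted p of 0.173 in edgeR and of 7.78e-08 in DESeq2, and its edgeR value was 0.0219 and 0.0171 without the same libraries.

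**Figure D2:**
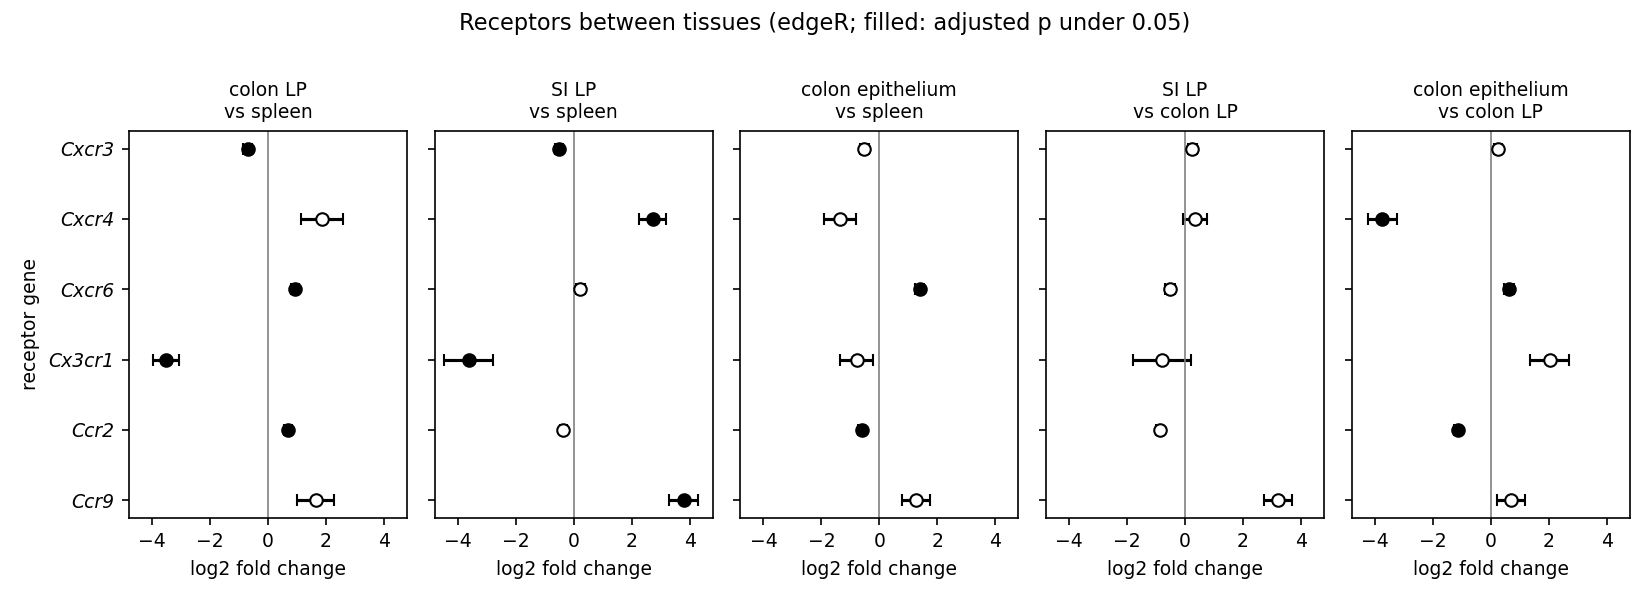
Log2 difference between tissues (horizontal axis, with SE bars) for each receptor in 5 comparisons, where filled symbols have an adjusted p under 0.05. Cxcr6 is 0.93 and 1.39 higher in colon lamina propria and colon epithelium than in spleen, Ccr9 is 3.80 higher in small intestine lamina propria than in spleen, and Cx3cr1 is 3.50 lower in colon lamina propria than in spleen (−3.50).

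Markers of other cells moved with tissue in the same CD3-positive cells. The 12 macrophage and monocyte markers, all 12 found in the matrix, summed to 301 to 797 CPM in spleen, 56.2 to 94.7 in colon lamina propria, 27.0 to 30.5 in small intestine lamina propria and 21.1 to 39.9 in colon epithelium. Of the spleen sum, 287 to 766 CPM was Ly6c2, which effector T cells also express. Csf1r, a defining macrophage gene, was at 2.23 CPM or less in all libraries. Lyz2, another marker of the list, reached 138.7 CPM, and was 7.29 ± 1.23 higher in knockout than in control spleen without passing. In knockout spleen 1 the list summed to 501 CPM, of which Ly6c2 was 346.5 CPM. The 12 epithelial markers, of which 11 were found, summed to 3.87 to 8.50 CPM in spleen and 41.1 to 1374 CPM in colon epithelium. The 9 natural killer and innate lymphoid markers, all found, summed to 719 to 2631 CPM in spleen and 3767 to 4842 CPM in colon epithelium. Most of the epithelial sum was Gzma, a granzyme that effector T cells also express. It was at 4600 and 3451 CPM in colon epithelium and at 376 to 2261 CPM in spleen. Between these tissues 3 of the 9 markers passed, 2 higher and 1 lower in the epithelium, beside 7.01% of all genes. The median difference of the list was −0.04. The 5 erythroid markers, all found, summed to 1509 CPM in control colon lamina propria 1 and to 0 to 217 CPM in the other 11 libraries; the 4 receptor calls between colon lamina propria and spleen held without that library. Dendritic cell markers (7 of 7 found) reached 118 CPM in knockout spleen 1, the library with the highest Cx3cr1, against 6.36 to 64.3 CPM in the other libraries. Of that sum 113 CPM was H2-Aa, while Flt3, Clec9a and Cd209a were at 0.395 CPM or less and no other marker of the list was above 9.37 CPM in any library. No marker of these lists was at 0 in all libraries. Their part in the tissue differences was not tested. When the 2244 cells with 2 or more UMIs of such markers were left out, no receptor that had passed lost its call.

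The effect of Il23r genotype was compared within colon lamina propria, within spleen, between these tissues, and over all 12 libraries. None of the 6 receptors passed in any of these tests, and neither did any other gene (0.0% of 10976 genes, or of 11305 genes over 12 libraries). At an unadjusted p under 0.05, edgeR had 123, 128, 114 and 525 genes in the same order, and DESeq2 called 0, 3, 2 and 3 genes after adjustment. Without a filter on low counts edgeR called 83, 70, 68 and 6 genes, among them Ccr9 in spleen (−1.97, adjusted p = 6.06e-06). In colon lamina propria the knockout minus control difference was −0.18 ± 0.22 for Cxcr3, −0.25 ± 0.20 for Cxcr6, −0.06 ± 0.20 for Ccr2, 0.33 ± 0.94 for Cxcr4, 0.01 ± 0.69 for Cx3cr1 and −0.38 ± 0.85 for Ccr9 (log2 ± SE). The SEs near 0.2 belong to the 3 receptors with the most UMIs, and those of 0.69 to 0.94 to the other 3. In spleen, Cx3cr1 stood at 1.09 ± 0.54 and Ccr9 at −1.96 ± 0.95, and Ccr9 stood at 0.36 without control spleen 2. The difference of the genotype effects between colon lamina propria and spleen was −1.08 ± 0.89 for Cx3cr1, 1.58 ± 1.27 for Ccr9 and −0.34 ± 0.28 for Cxcr6.

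Over the 6 matched pairs of a knockout and a control library, Cxcr3 was lower in the knockout in 5. Its log2 ratio was −0.64 and −0.15 in spleen 1 and 2, 0.07 and −0.54 in colon lamina propria 1 and 2, −0.14 in small intestine lamina propria and −0.49 in colon epithelium. Over 12 libraries its difference was −0.32 ± 0.11, with an unadjusted p of 0.0161 and an adjusted p of 1.0. Cxcr6 was lower in 5 of 6 pairs (−0.22 ± 0.11 over 12 libraries) and Ccr9 in 5 of 6 (−0.95 ± 0.49). Ccr2 lay between −0.28 and 0.13 in all 6 pairs, with −0.01 ± 0.09 over 12 libraries. Cxcr4 was lower in 3 of 6 pairs, and Cx3cr1 in 2 of the 5 pairs with a UMI on both sides.

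**Figure D3:**
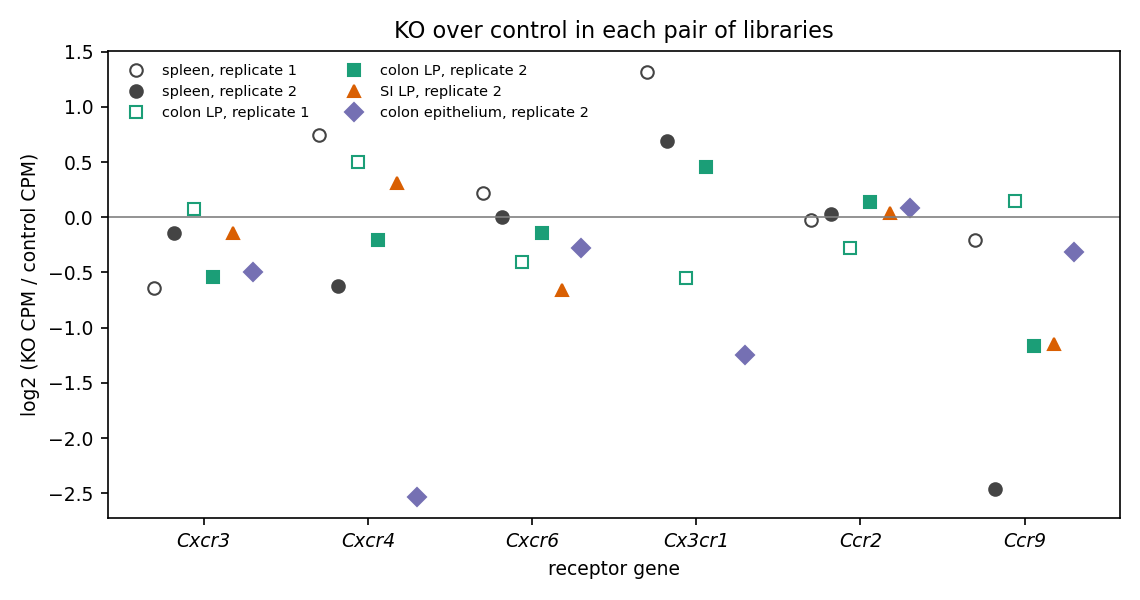
Log2 ratio of knockout to control CPM (vertical axis) for each receptor in up to 6 matched pairs of libraries, by tissue and number. The 6 points of Ccr2 lie between −0.28 and 0.13, Cxcr3, Cxcr6 and Ccr9 each have 5 of 6 points below 0, and Cx3cr1 has no point for the small intestine, where the knockout library had 0 UMIs.

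The receptor genes of chromosome 9 within 400 kb of Cxcr6 were higher in colon lamina propria than in spleen in several cases. Of 6 genes described there 4 passed, beside 16.6% of all genes called higher: Cxcr6, Ccr2, Ccr1 (2.45 ± 0.57, adjusted p = 0.0194) and Lztfl1 (2.26 ± 0.34, adjusted p = 0.00387). Ccr9 and Xcr1 (1.01 ± 0.79, adjusted p = 0.367) did not pass. Lztfl1, which is no chemokine receptor, lies inside the GENCODE span of Ccr9 on the opposite strand. That overlap depends on the annotation, since Lztfl1 ends at 123717697, before the RefSeq promoter window of Ccr9 (123766961-123767260). Whether the counting used strand, and which span of Ccr9 it used, was not given in the sources used here. Whether Ccr9 and Lztfl1 share counts was not tested. How reads shared between related receptor genes were counted is not given either.

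**Figure D4:**
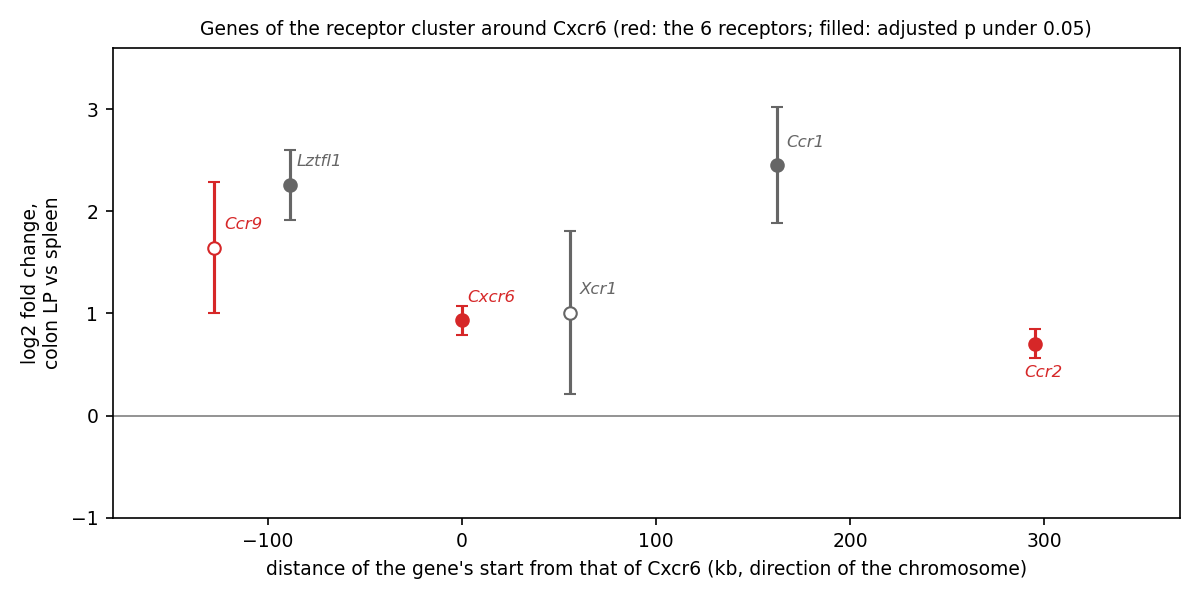
Log2 difference of colon lamina propria minus spleen (vertical axis, with SE bars) for 6 genes by distance in kb from Cxcr6 (horizontal axis). Distances are between GENCODE starts, all within 400 kb of the start of Cxcr6. Ccr9, Cxcr6 and Ccr2 are in red. All 6 values lie above 0, from 0.70 for Ccr2 to 2.45 for Ccr1.

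Of 17 other chemokine receptors 10 had enough counts to be tested. In colon lamina propria against spleen 6 of the 10 passed, beside 29.7% of all genes, with a median difference of 1.29 against 0.00 over all genes. Ccrl2, an atypical receptor, was 3.42 ± 0.34 higher (adjusted p = 0.000515), Ccr4 was higher too, and Cxcr5, a receptor of follicular helper cells, was lower at −1.89 (adjusted p = 0.00839). Ccr7, which leads naive and central memory cells into lymph nodes, did not pass between colon lamina propria and spleen (−0.13, adjusted p = 0.883) and was at 3.63 and 2.62 CPM in colon epithelium against 14.8 to 81.4 CPM elsewhere. In small intestine lamina propria 3 of 10 were higher than in spleen, among them Ccrl2 and Ccr4, beside 13.4% of all genes. In colon epithelium 4 of 10 passed against spleen, beside 7.01% of all genes, 3 of them higher (Ccrl2 and Ccr1 among them) and Cxcr5 lower.

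Ligands were also read in the CD3-positive cells. Of 11 ligands of the 6 receptors, 10 were in the matrix and 6 had enough counts to be tested. Cxcl10, the CXCR3 ligand, was at 2.39 to 4.40 CPM in spleen and 44.1 to 128 CPM in colon lamina propria, 5.04 ± 0.47 higher (adjusted p = 0.000767). It was at 53.0 and 99.3 CPM in small intestine lamina propria and at 4.24 and 14.5 CPM in colon epithelium. Cxcl16, Ccl2 and Ccl8 also passed between colon lamina propria and spleen, with 0.528 to 4.40 CPM in the former and 0.227 CPM or less in the latter. Ccl25, the CCR9 ligand, was at 2.70 to 12.5 CPM in all libraries. It was 0.83 ± 0.26 higher in small intestine lamina propria than in spleen (adjusted p = 0.0465), at 12.5 and 9.98 CPM in the small intestine. In that comparison 4 of 6 ligands passed, all higher (with Cxcl9, Cxcl10 and Cxcl16), beside 13.4% of all genes. In colon epithelium 5 of 6 were lower than in colon lamina propria, beside 7.57% of all genes, but not Ccl25. Which cells made these RNAs was not tested.

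Of 28 listed G protein, arrestin, GTPase and kinase genes that act below the receptors, 26 were tested. Against spleen, 3 of 26 passed in colon lamina propria, a smaller share than the 29.7% of all genes. Arrb1, which ends receptor signals, was higher (1.57 ± 0.33), and Rasgrp2, which activates the integrin switch RAP1 (−1.58 ± 0.13), and Coro1a, an actin regulator (−0.72), were lower. In small intestine lamina propria 6 of 26 passed, a share close to the 23.2% of all genes, with Arrb1 higher and Rasgrp2 (−1.81), Rap1a, Coro1a, Rac2 and Gnai2 lower. In colon epithelium Rasgrp2 alone passed (−2.13), beside 7.01% of all genes. No gene of this list passed for genotype.

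Of 34 genes of effector, resident and recirculating T cells, 12 were higher and 7 lower in colon lamina propria than in spleen, beside 16.6% and 13.1% of all genes. The 4 with the smallest p were Rgs1, which limits G protein signals (4.52 ± 0.26), Nr4a1, an immediate-early gene (5.37 ± 0.31), Rora (2.24 ± 0.16) and the costimulator Icos (3.02 ± 0.24), all higher. Immediate-early genes also respond to tissue dissociation, whose part was not tested.

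Cells with a UMI of a receptor were then compared with the other cells of the same libraries, with the receptor itself left out and each cell thinned to 1000 UMIs. For Cxcr6, 518 of 8632 genes (6.0%) passed over 12 libraries, 273 higher and 245 lower. Higher were Csf1 (1.13 ± 0.13, 31.4 against 13.7 CPM), Gpr171, Rbpj (0.55 ± 0.07), Gpr34 and Ostf1, each in 12 of 12 libraries. Lower in all 12 libraries were Eomes, the T-box factor of memory and cytotoxic cells (−2.84 ± 0.18, 4.93 against 35.2 CPM), Slamf6 (−0.93 ± 0.09), Tubb5, Asap1 and Tspan32. Of 33 partner genes tested, 8 were higher, among them Ifng (0.62 ± 0.06, 12 of 12 libraries), Csf2 and the integrin Itga1, and 7 lower, among them Ccr7 (−1.68 ± 0.27), Tcf7 and Gzmk. Ccr2 was 0.52 ± 0.13 higher in Cxcr6 cells (adjusted p = 0.0422, 12 of 12 libraries). Tubb5 turned to 0.12 when cells were not thinned. Of 24 markers of other cell types tested, Gata3 (0.43), Klrk1 (0.70), Ccr1 (0.85) and Gzma (0.35) were higher, and Eomes and Reg3b (−2.40, 3.25 against 18.4 CPM) lower. Genes of these lists such as Gzma and Ccr1 are also expressed by effector T cells, and the source of their RNA was not tested.

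Ccr2 cells showed 365 of 8308 genes past the threshold (4.39%), 207 higher and 158 lower. Serpinb9, a granzyme B inhibitor, was 0.47 ± 0.06 higher, with Podnl1, Ms4a4b, Cd47 and Pglyrp1. Tuba1b, Rrm2, a nucleotide synthesis enzyme of dividing cells (−0.83 ± 0.10), Penk (−1.65 ± 0.15), Id3 and the epithelial integrin Itgae (−0.81 ± 0.11) were lower. Of the partner genes, Ly6c2, Rgs1 and Il7r were higher and Itgae, Ccr7, Mki67 and Top2a lower, so of 32 tested 3 passed one way and 4 the other. Cxcr6 did not pass in this direction (0.46 ± 0.13, adjusted p = 0.0831). Of 21 markers of other cell types tested in these cells, Klrk1 (0.61), Il1rl1 (1.22), Ccr1 (0.82) and Ly6c2 (0.83) were higher and Cd8a (−4.27, 0.138 against 5.19 CPM), Reg3b (−2.46) and H2-Aa (−0.83) lower. Ccr1 and Ly6c2 are also expressed by effector T cells.

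Cxcr3 cells differed in 123 of 8026 genes (1.53%), 25 higher and 98 lower. Ccl1, a chemokine that Th2 and activated T cells secrete, was at 13.4 CPM in cells with a Cxcr3 UMI and 103 CPM in those without (−2.96 ± 0.11, higher in 0 of 12 libraries). Zeb2, a factor of terminal effector cells (−0.98 ± 0.13), Furin, Kdm6b and Areg (−1.01 ± 0.14) were also lower. Ms4a4b (0.18 ± 0.03), Slamf6 (0.34 ± 0.07), Ptprcap, Ms4a6b and S1pr4 were higher by small margins. Of 33 partner genes, Gzmk and Itgb7 were higher, and Zeb2, Gzmb, Gzma, S1pr5 and Nr4a1 lower. Cx3cr1 was lower in Cxcr3 cells at −0.93 ± 0.22 (adjusted p = 0.00250) and was higher there in 3 of 12 libraries. The remaining libraries need not all be lower, since the small intestine knockout held 0 Cx3cr1 UMIs. Of 22 markers of other cell types tested, none was higher, and Cd8a (−1.77), Reg3b (−1.52, 3.70 against 10.5 CPM), H2-Aa (−1.09, 11.1 against 26.9 CPM) and Gzma (−0.82) were lower. Without cells holding markers of another cell type, 157 genes passed for Cxcr3, 516 for Cxcr6 and 327 for Ccr2.

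Cx3cr1 cells were numerous enough in 5 libraries, the 4 of spleen and control colon epithelium. There 212 of 5857 genes passed (3.62%), 38 higher and 174 lower, and with RLE scaling 51 were higher and 92 lower. The egress receptor S1pr5 was at 239 CPM in cells with a Cx3cr1 UMI and 18.8 CPM in those without (3.70 ± 0.33, higher in 4 of 5 libraries). Over all CD3-positive cells S1pr5 was at 0.259 CPM in control colon epithelium, against 3.48 to 39.9 CPM in spleen, so this difference describes spleen cells. The killer cell receptor genes Klrg1 (2.40 ± 0.23, 306 against 54.2 CPM) and Klrd1 (1.32 ± 0.15), the cytotoxic granule gene Nkg7 (0.97 ± 0.11) and Kcnj8 were higher in all 5. The interferon-induced Ifitm2 (−1.97 ± 0.17), Ifitm3, Ifi27l2a, Ly6e and Ly6a were lower in all 5. Of 28 partner genes 6 were higher, among them Zeb2 (3.26 ± 0.32), Itga4, Ifng and Klf2, and 4 lower: Icos, Tcf7, Il7r and Ccr7, which had 0 CPM in Cx3cr1 cells and 65.7 CPM in the rest.
Cxcr3 was at 170.0 CPM in Cx3cr1 cells and 331 CPM in the rest, lower in 5 of 5 libraries (−1.02 ± 0.20, adjusted p = 8.57e-05). Of 11 markers of other cell types tested in these cells, Klrk1 was higher (0.97 ± 0.17) and Gata3 lower (−1.28 ± 0.29). The number of genes called was 112, 113, 122 and 120 without control spleen 1, control spleen 2, knockout spleen 1 and knockout spleen 2, and Klrd1 lost its call without control spleen 1 (1.35, adjusted p = 0.214). Without cells holding markers of another cell type it was 105.

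Ccr9 cells were compared in 7 libraries, in which 49 of 6733 genes passed (0.728%), 6 higher and 43 lower. With RLE scaling 23 passed, 11 higher and 12 lower, so the excess of lower genes depends on the scaling. Il17a, the cytokine of Th17 cells, was at 168 CPM in Ccr9 cells and 18.2 CPM in the rest (2.68 ± 0.41, higher in 5 of 7 libraries). Tmem176a (0.94 ± 0.14), Tmem176b, Il17re (1.63 ± 0.37) and Ccr6, a chemokine receptor of Th17 cells (2.0 ± 0.53), were also higher, as was Lztfl1 (0.82 ± 0.15), with the limit on overlapping genes given above. Ifitm1 (−2.61 ± 0.26), Ly6c2 (−2.93 ± 0.43), the integrin Itgb1 (−2.06 ± 0.30), Ifitm3 and Klrk1 were lower. Control spleen 2 was the spleen library with the most Ccr9, and without it 15 genes passed, and Il17a (2.71, adjusted p = 0.0835), Il17re (1.40, adjusted p = 0.208), Tmem176b (0.43, adjusted p = 0.338) and Itgb1 (−1.28, adjusted p = 0.106) did not. Without control colon lamina propria 2, 24 genes passed. Il17re (adjusted p = 0.0523) and Tmem176b (0.50, adjusted p = 0.0703) also lost their calls without control and knockout small intestine, respectively.

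Cxcr4 cells reached 30 in only 3 libraries, all of colon lamina propria (36, 79 and 38 cells). There 22 of 7579 genes passed (0.29%), 1 higher and 21 lower. Penk, which encodes an enkephalin precursor, was at 199.8 CPM in Cxcr4 cells and 44.3 CPM in the rest (1.91 ± 0.39), while Ifitm2 (−1.19 ± 0.17), Plac8, Tmsb10, Tmsb4x and Sh3bgrl3 were lower. The median difference over all genes was −0.31 here, and with RLE scaling 4 genes passed, 2 in each direction. Without control colon lamina propria 2, knockout 1 or knockout 2 there were 3, 16 and 7 calls, of the named genes only Ifitm2 passed in all 3 cases (−1.16 to −1.15), and Penk stood at 1.87 (adjusted p = 0.0852) and 1.72 (adjusted p = 0.129) without control 2 and knockout 1.

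**Figure D5:**
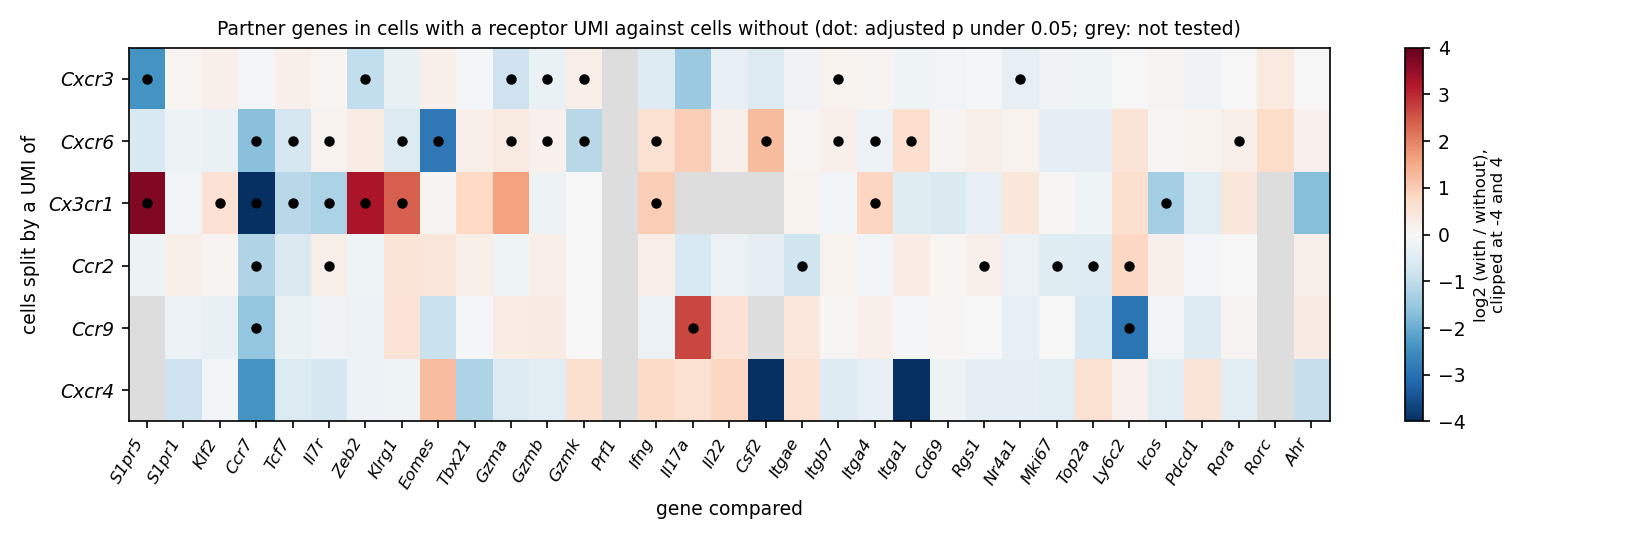
Log2 difference between cells with and without a UMI of each receptor (colour, limited to ±4) for 33 partner genes, where a dot marks an adjusted p under 0.05 and grey a gene that was not tested. In the Cx3cr1 row S1pr5 (3.70), Zeb2 (3.26) and Klrg1 (2.40) are high, in the Cxcr6 row Eomes (−2.84) is low, and the Cxcr4 row has no dot.

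Across the 12 libraries, the genes whose log2(CPM + 1) followed each receptor most closely were ranked by Pearson's r, as a description over libraries that share tissues and numbers. They were Ccl1 (0.95), Ly6g5b (0.93) and Mapkapk3 (0.89) for Cxcr6, Sun1 (0.97), Ifi47 (0.97) and Spn (0.96) for Cx3cr1, and Sec11a, Dpp4 and Oxct1 (0.92 each) for Cxcr3. They were Taf1d (0.96), Snhg6 (0.91) and Pik3r5 (0.90) for Cxcr4, Pnisr (0.92), Nisch (0.91) and Tmem191c (0.90) for Ccr9, and Nudc (0.85), Man1a (0.84) and Ahnak (0.82) for Ccr2. Ccl1 ran from 2.79 to 702 CPM over the libraries. Among the 6 receptors the pair most alike was Cxcr3 and Cx3cr1 (0.74), whose odds ratio of detection in the same cell was below 1 in 5 of 5 libraries, and the most opposed pair was Cx3cr1 and Ccr9 (−0.73).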

How the data were processed

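Single cells were captured with 10x Genomics Chromium 3′ version 2 chemistry; Cell Ranger 2.0.2 and the mm10 build are named in the submitters' processing notes. The authors deposited a matrix of UMI counts per gene and cell, not normalized, with a table of cells that names each cell's library. What filter on cells came before deposit was not given in the sources used here. All tests were 2-sided. They used the deposited counts summed per library over CD3-positive cells (3 or more UMIs of Cd3d, Cd3e and Cd3g), and 2 columns of cell values were not used. Sums were tested in R 4.3.3 with edgeR 4.0.16 (filterByExpr, TMM, robust quasi-likelihood fit, Benjamini-Hochberg adjustment over all genes at 0.05, SE as the log2 difference over the square root of F). DESeq2 1.42.0 was an alternative. Colon lamina propria, spleen and genotype were fitted over 8 libraries with 1 mean per group, the other tissues over the 8 libraries numbered 2, and genotype also over 12 libraries with tissue as a covariate. Cells were thinned to 1000 UMIs for shares and for cells with a receptor UMI (at least 30 such cells in a library, library as a covariate). Doublets were not called; cells with 2 or more UMIs of 58 markers of other cell types were left out as an alternative. Intervals cover counting error only. The main edgeR fits of tissue and genotype, and the fit of cells with a Cxcr6 UMI, were run on simulated data. The fits of cells with a UMI of another receptor and the DESeq2 fits were not. The simulated libraries were drawn independently with 1 fixed spread for all genes and no effect of the replicate number. They therefore do not check the calls against the pairing by number described below.

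Deviations of libraries numbered 1 and 2 from their group means correlated between groups at r = 0.24 to 0.463 in all 6 pairs of groups, so the number pairs the libraries, and the batch column equals it in all 32763 cells. The main fits did not use this pairing, which entered only in the alternative with the replicate block. The 6 genes and all gene lists were chosen with earlier results of these data known. Named were the 6 genes, up to 4 members of a list with the smallest p past the threshold, Ccr7, the 3 genes most alike, and in cells with a receptor UMI the 5 genes with the smallest p each way at 20 CPM or more; partner genes were chosen to be named after their values were seen. Alternatives were RLE scaling, DESeq2, no filter, 5 or more CD3 UMIs, all cells, no cells with other markers, at most 10% mitochondrial UMIs, the replicate block, the libraries numbered 2 only, and leaving out each library. A few results are not reported here.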

Additional observations from a re-analysis of the deposited data

How the results depend on the processing

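Of the 4 receptor calls between colon lamina propria and spleen, all held under every alternative tried, with TMM or RLE scaling, DESeq2, no filter on low counts, 5 or more CD3 UMIs, all cells, no cells with markers of other cells, at most 10% mitochondrial UMIs, the replicate block, the libraries numbered 2 alone, and each library left out. With at most 10% mitochondrial UMIs all 63 differences and counts kept their direction and side of the threshold. In the paired fit with the replicate block, 33 of 35 did; Cxcr4 between colon lamina propria and spleen passed (1.97), and Cx3cr1 for genotype in colon lamina propria turned to −0.051. In the libraries numbered 2 alone Cxcr4 passed at 2.38. Depth limits Cxcr4, Cx3cr1 and Ccr9 most, with as few as 3, 0 and 11 UMIs in a library. The cause of the changes below was not tested.

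With DESeq2, Cxcr4 (1.81) and Ccr9 (1.66) passed between colon lamina propria and spleen. It also gave calls for Ccr2 in small intestine against spleen (−0.37), Cxcr3 (−0.51) and Ccr9 (1.35) in colon epithelium against spleen, Cx3cr1 in colon epithelium against colon lamina propria (1.97), and Ccr2 (−0.88) and Ccr9 (3.21) between the lamina propria tissues, where 92 genes were called. For genotype it called 3 genes in spleen, 2 for the difference between tissues and 3 over 12 libraries, with Cx3cr1 over 12 libraries at −0.0024. With no filter on low counts, Cxcr4 (1.88) and Ccr9 (1.65) passed between colon lamina propria and spleen, Ccr2 passed between the lamina propria tissues (−0.90, with 7 genes called), and Cx3cr1 lost its call in small intestine against spleen (−3.64). For genotype the counts were then 83 in colon lamina propria, 70 in spleen with Ccr9 at −1.97, 68 for the difference between tissues with Cxcr4 at 0.0088, and 6 over 12 libraries. With 5 or more CD3 UMIs, Cxcr3 passed in colon epithelium against spleen (−0.51), and for genotype Cx3cr1 stood at −0.0050 in colon lamina propria and Ccr2 at 0.0034 over 12 libraries. With all cells, colon epithelium differed from colon lamina propria in 733 genes, without Cxcr6 (0.64), and from spleen in 319 genes, without Ccr2 (−0.63), and for genotype Cx3cr1 stood at −0.067 in colon lamina propria and −0.028 over 12 libraries and the Cxcr4 difference between tissues at 0.037. Without cells with other markers, Ccr2 passed in small intestine against spleen (−0.37) and between the lamina propria tissues (−0.93, with 5 genes called), and for genotype Ccr2 in spleen stood at 0.0036 and the Cxcr4 difference between tissues at 0.14.

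In cells with a receptor UMI, leaving cells at full depth gave 1521 calls for Cxcr3, 1005 for Cxcr4, 2291 for Cxcr6 with Tubb5 at 0.12, 585 for Cx3cr1, 1310 for Ccr2 and 489 for Ccr9. No filter gave 368 calls for Cxcr3, 114 for Cxcr4 and 137 for Ccr9. RLE scaling gave 4 for Cxcr4 and 23 for Ccr9, and leaving out cells with other markers gave 71 for Cxcr4 and 105 for Cx3cr1. Of 72 shares of cells with a UMI, 69 moved beyond their interval at full depth.

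Leaving out each library in turn gave these lowest and highest values. Between colon lamina propria and spleen, 1793 to 3596 genes were called, Cxcr4 ran from 1.35 to 2.75 and Ccr9 from 1.21 to 2.81. For genotype in colon lamina propria, 0 to 1 genes were called, with Cxcr3 at −0.44 to 0.046, Cxcr4 −0.66 to 0.90, Cx3cr1 −0.27 to 0.29, Ccr2 −0.27 to 0.17 and Ccr9 −1.0 to 0.044. In spleen, 0 to 1 genes were called, with Cxcr4 at −1.45 to 1.27, Cxcr6 −0.057 to 0.21, Ccr2 −0.091 to 0.043 and Ccr9 −2.81 to 0.36. For the difference between these tissues, 0 to 1 genes were called, with Cxcr3 at −0.0017 to 0.48, Cxcr4 −1.03 to 1.76, Ccr2 −0.25 to 0.20 and Ccr9 −0.75 to 2.42. Over 12 libraries 0 genes were called, with Cxcr4 at −0.30 to 0.36, Cx3cr1 −0.38 to 0.54 and Ccr2 −0.053 to 0.049. Between the lamina propria tissues, 1 to 55 genes were called, with Cxcr4 at −0.13 to 0.85, Ccr2 −0.97 to −0.79 and Ccr9 3.13 to 3.27. In colon epithelium against colon lamina propria, 224 to 1933 genes were called, with Cxcr4 at −5.44 to −3.02, Cxcr6 0.51 to 0.76 and Cx3cr1 1.04 to 2.78. In small intestine against spleen, 1097 to 2831 genes were called, with Cxcr3 at −0.65 to −0.39, Cxcr4 2.27 to 3.24, Cxcr6 −0.046 to 0.47 and Cx3cr1 −10.09 to −3.01. In colon epithelium against spleen, 371 to 1155 genes were called, with Cxcr3 at −0.67 to −0.35, Cxcr4 −3.06 to −0.63, Cx3cr1 −1.71 to 0.031, Ccr2 −0.65 to −0.56 and Ccr9 0.63 to 2.26. In cells with a receptor UMI, an alternative chosen after seeing the data, 3 to 16 genes were called for Cxcr4, 112 to 224 for Cx3cr1 and 15 to 59 for Ccr9.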

Other observations

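The 1450 cells with no CD3 UMI entered no comparison. Summed over libraries, Cxcr6 stood at 513 CPM in them, Cxcr4 at 27.5, Cxcr3 at 34.4, Ccr2 at 42.2, Ccr9 at 47.0 and Cx3cr1 at 5.69 CPM. After thinning, 34.0% of these cells held a Cxcr6 UMI, against 47.2% of CD3-positive cells. The knockout small intestine library held 533 of them, with Cxcr6 at 552 CPM and Cxcr4 at 23.6 CPM. In 12 cells with B cell markers and no CD3 UMI, Ccr9 was found in 4 after thinning (33.33%).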
